A study of Mus musculus with 4 samples.

Results

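The cells described here were the mesenchymal stromal cells (MSC) of the embryonic large intestine (LI) in which at least 1 transcript of the homeobox gene Pitx1 was detected. They were compared with the LI MSC of the same libraries in which none was detected. Members were chosen by their Pitx1 UMI count, in 4 steps. The 2 LI libraries were taken, barcodes with 3000 or more unique molecular identifiers (UMIs, each standing for 1 captured transcript), 1000 or more detected genes and under 10% mitochondrial UMIs were kept, and barcodes with any UMI of Upk3b (mesothelium), Sox10 (neural crest) or Prph (neurons) were left out. The remaining cells were split at 1 Pitx1 UMI. This gave 1796 Pitx1-positive cells among 8819 LI MSC, out of 24485 barcodes in the 4 libraries. Since Pitx1 UMIs chose the cells, Pitx1 itself was described and not tested.

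All 4 libraries came from untreated E12.5 embryos of the strain EYFP (C57BL/6), mice from a cross of R26R.EYFP, a Cre-dependent yellow fluorescent protein allele, with a Cre line that the methods do not name for them. Embryos were pooled in 2 independent experiments, and the large intestine was dissected together with the cecum, so a cecal and a colonic cell cannot be told apart by dissection. Live cells were sorted as CD45-, Ter119-, CD31-, EpCAM-, Itgb1+ and YFP+. Each region, LI and small intestine (SI), had 2 libraries, and whether an LI and an SI library with the same replicate number shared embryos is not given in the labels.

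Pitx1 encodes a paired-type homeodomain factor known from the hindlimb and pituitary. The hindgut and cecum are also patterned by the Hox genes, which lie in 4 clusters and are numbered from 1 (anterior) to 13 (posterior). In the cecal bud, mesenchymal Fgf10, a secreted fibroblast growth factor, signals to the overlying epithelium, and Fgf9 is known from the same bud. Bone morphogenetic proteins (BMP), WNT proteins and their secreted inhibitors regulate smooth muscle formation and epithelial growth along the gut.

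Paired-type factors of the PITX family bind TAATCC. Because many genes moved together with Pitx1, RefSeq promoters (GRCm38.p6, 250 bases before to 50 bases after the start site) were searched for these 6 letters on both strands. A gene with a promoter entry was counted if any of its promoters held the motif. These were 51 of 630 genes called higher in Pitx1-positive cells (8.10%) and 63 of 945 called lower (6.67%). Among all genes tested they were 653 of 9827 (6.65%). Counted by single promoter instead of by gene, 2320 of all 32851 promoters held it (7.06%). Shares by gene thus lay between 6.65% and 8.10%, and a match describes only letters. Promoters of 4 genes higher in Pitx1-positive cells are printed 5′ to 3′ on the gene's strand, with the motif in capitals, or its reverse complement where it lies on the other strand. Cers4, a ceramide synthase (chr8:4493155-4493454, + strand), holds it at position -192 relative to its start site, and Isl1, a LIM homeobox gene (chr13:116309639-116309938, - strand), at position -177. The windows of Fgf10 (chr13:118714449-118714748, + strand) and Bmp4 (chr14:46390620-46390919, - strand), the FGF and BMP ligands with the smallest adjusted p, hold no match. Pitx1 had no entry.
Cers4: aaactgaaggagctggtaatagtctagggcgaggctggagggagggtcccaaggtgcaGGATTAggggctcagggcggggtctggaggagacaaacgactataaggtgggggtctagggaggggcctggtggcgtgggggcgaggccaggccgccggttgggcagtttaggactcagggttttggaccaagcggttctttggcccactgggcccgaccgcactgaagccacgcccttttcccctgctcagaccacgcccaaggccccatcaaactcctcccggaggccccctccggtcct
Isl1: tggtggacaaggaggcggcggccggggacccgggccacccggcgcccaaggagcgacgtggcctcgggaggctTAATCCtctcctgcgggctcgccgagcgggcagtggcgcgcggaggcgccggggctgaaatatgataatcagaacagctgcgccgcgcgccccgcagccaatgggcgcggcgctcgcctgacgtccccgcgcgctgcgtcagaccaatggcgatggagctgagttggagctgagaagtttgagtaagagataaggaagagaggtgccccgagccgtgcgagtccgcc
Fgf10: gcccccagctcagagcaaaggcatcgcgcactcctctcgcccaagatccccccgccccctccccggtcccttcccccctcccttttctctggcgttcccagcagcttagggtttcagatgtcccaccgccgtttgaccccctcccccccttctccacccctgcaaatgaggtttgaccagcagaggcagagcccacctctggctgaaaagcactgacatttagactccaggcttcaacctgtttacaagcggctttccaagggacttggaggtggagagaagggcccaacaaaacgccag
Bmp4: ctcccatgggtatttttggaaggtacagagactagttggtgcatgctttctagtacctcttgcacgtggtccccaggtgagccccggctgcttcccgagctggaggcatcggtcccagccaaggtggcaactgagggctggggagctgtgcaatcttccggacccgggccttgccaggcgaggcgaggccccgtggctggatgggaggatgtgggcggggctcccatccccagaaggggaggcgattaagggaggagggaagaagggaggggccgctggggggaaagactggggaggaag

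Totals ranged from 31630548 to 62886525 UMIs and from 5151 to 6881 barcodes a library. Kept LI cells numbered 4736 in replicate 1 and 4083 in replicate 2, with a median of 4539 and 8871 UMIs, and 4709 and 5912 SI cells (median 8893 and 8430 UMIs) passed the same filters. LI replicate 1 was thus the shallowest library. Pairs of libraries shared 8 to 15 barcodes, at most 0.221% of the smaller one. Replicates differed far beyond counting noise (chi-square per degree of freedom 57.3 for LI and 43.0 for SI), so none was a copy of another. The filters themselves set Upk3b, Sox10 and Prph to 0, which checks nothing about the label MSC. Of markers that the filters did not use, Msln, Ptprc and the fibroblast gene Dpt were at 0 in every sum, and the collagen gene Col3a1 stood at 564 to 938 counts per 1000000 UMIs (CPM) in the LI sums. Other members of the same lists were present: the 10 mesothelial markers, mostly Krt18, summed to 36.7 to 121 CPM over the LI sums. The 6 immune markers, mostly Lyz2 and Fcer1g, summed to 1.0 to 3.49 CPM. A list of 10 neural markers reached 203 and 221 CPM in Pitx1-negative and 15.8 and 23.7 CPM in Pitx1-positive LI cells. Neural transcripts therefore remained in the Pitx1-negative group, and for several genes values are also given without every cell holding a neural UMI.

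Pitx1 was detected in a nearly equal share of both LI libraries and almost nowhere in SI. The gene lies on chromosome 13 (chr13:55825051-55836192, - strand, GRCm38, ENSMUSG00000021506) and shares exon bases with Gm28760, which had 9 and 7 UMIs in Pitx1-positive and 0 in Pitx1-negative cells and is not an independent result. In LI replicate 1, 971 of 4736 cells held a Pitx1 UMI (20.5%, 95% Wilson interval 19.4 to 21.7). In LI replicate 2 they were 825 of 4083 (20.2%, 19 to 21.5), for a mean of 20.4% ± 0.210 (SD, n = 2). In SI, 1 of 4709 and 3 of 5912 cells had any, or 0.0212% and 0.0507%. SI cells had median depths of 8893 and 8430 UMIs against 4539 and 8871 in LI. As separate runs they do not measure free Pitx1 RNA or doublets within the LI libraries, where barcodes left out for a Sox10 or Prph UMI held Pitx1 in 6.15% and 4.60% of cases (3.08% and 2.51% after thinning), and the intervals cover counting error only.

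Depth was similar in both groups. Pitx1-positive cells had a median of 4517 UMIs in replicate 1 and 9064 in replicate 2, and Pitx1-negative cells 4541 and 8801.5. Median genes were 2095 and 3369 against 2078 and 3257.5, and mitochondrial UMIs were 3.13% and 4.07% against 3.21% and 4.19%. Cells with the highest Scrublet doublet scores made up 8.96% and 4.97% of Pitx1-positive and 5.10% and 3.87% of Pitx1-negative cells, and without them the mean share was 19.9%. After every cell was thinned to 3000 UMIs, Pitx1 was detected in 813 (17.2%) and 612 cells (15.0%), a mean of 16.1% ± 1.54. Cells that lost their Pitx1 UMIs in this step count as negative in the thinned comparison. Among barcodes with 2800 to 3000 UMIs, just outside the threshold, 66 of 249 (26.5%) and 11 of 41 (26.8%) held a Pitx1 UMI, and just inside (3000 to 3200 UMIs) 72 of 309 (23.3%) and 9 of 47 (19.1%).

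**Figure D1:**
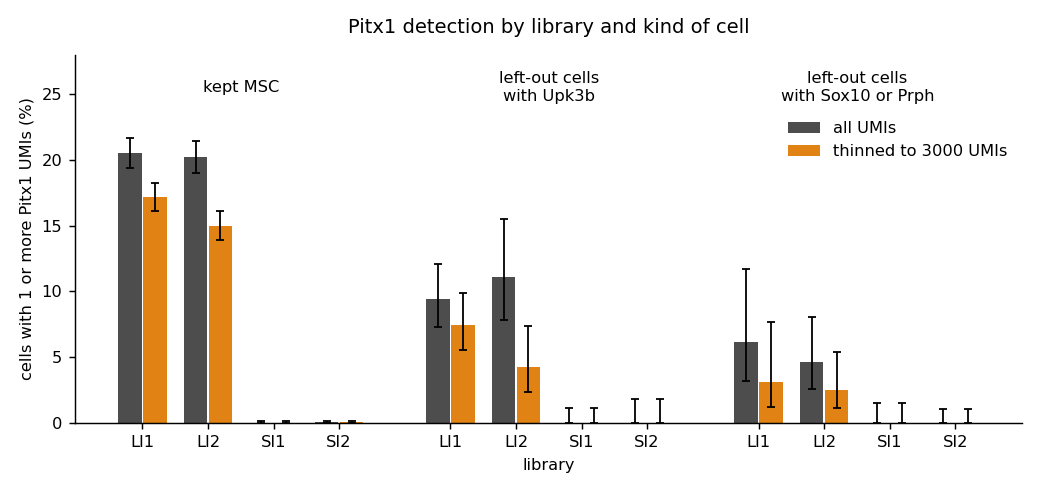
Share of cells with 1 or more Pitx1 UMIs (y axis, percent) in each library, for kept MSC and for barcodes left out for Upk3b or for Sox10 or Prph UMIs, with all UMIs (grey) and thinned to 3000 UMIs (orange); error bars are 95% Wilson intervals. Kept LI cells stand at 20.5% and 20.2%, and no SI bar exceeds 0.0507%.

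Within positive cells the amount of Pitx1 varied widely. Positive cells held a median of 3 Pitx1 UMIs in replicate 1 and 4 in replicate 2, with maxima of 18 and 39, and Pitx1 made up 703 and 506 CPM of their summed transcripts. Of the 971 cells in replicate 1, 287 held 1 UMI, 307 held 2 to 3, 279 held 4 to 7 and 98 held 8 or more. In replicate 2 these numbers were 202, 187, 223 and 213. A cell without a Pitx1 UMI may still transcribe the gene below this depth.

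Pitx1-positive and Pitx1-negative cells differed in many genes, though how many depended on the test. UMIs were summed over the cells of each status in each library, and the 4 sums were compared with edgeR's quasi-likelihood test with the library as a term, calling genes at a Benjamini-Hochberg adjusted p under 0.05. Of 13172 genes tested, 2165 were called (16.4%), of which 889 were higher (6.75%) and 1276 lower (9.69%) in Pitx1-positive cells. DESeq2's Wald test on the same sums called 628, 261 higher and 367 lower. With no replicate block (no library term) edgeR called 32, 18 higher and 14 lower. The 2 libraries gave the same direction for 8852 of all 13172 genes tested (67.2%) and for 2154 of the 2165, which passed on these same libraries, so that their agreement is no independent support. Most differences were modest, with a median absolute log2 fold change of 0.60, and 670 genes exceeded 1 on the log2 scale (235 higher, 435 lower). In thinned cells 638 (5.23%) were higher and 903 (7.41%) lower of 12193 tested, and 1334 of the 2165 were called again. Without the highest doublet scores 1988 of them were called again. The median log2 fold change over all genes was -0.0015.

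Both sums of a library come from the same embryos and run, and p-values rest on 2 libraries. With 4 sums and the library as a term, 1 residual degree of freedom remained for each gene, so the p-values lean on the dispersion estimated across all genes, and very small ones should be read with that limit. With 1 LI library left out, each LI group was 1 sum, so the spread came from the 2 SI sums alone. Calls from that fit therefore do not measure the spread among LI libraries. The 93 called genes that the naming rule selected all kept their direction in it.

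**Figure D2:**
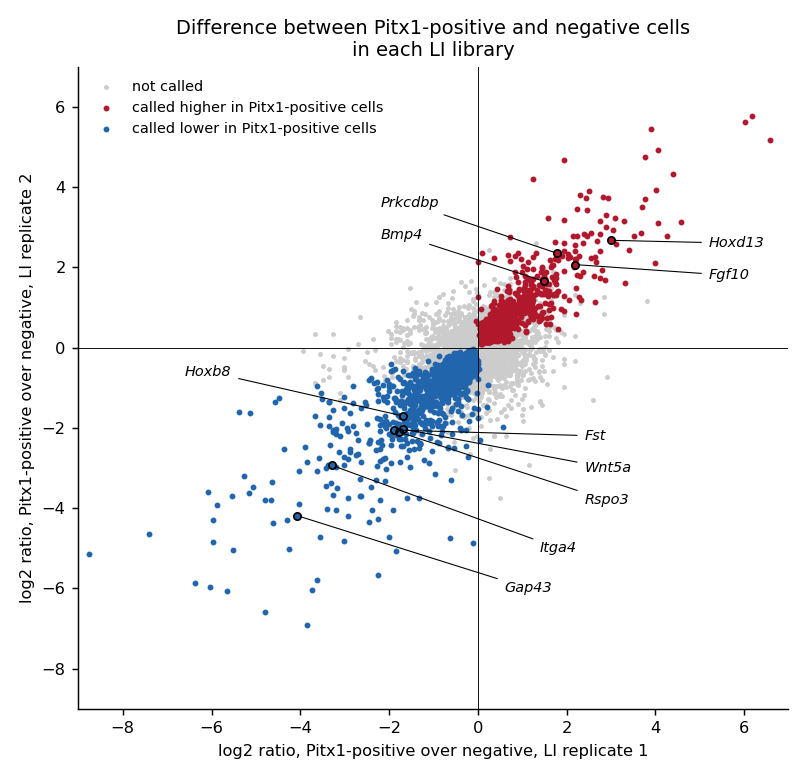
Each point is a gene, with the log2 ratio of its CPM in Pitx1-positive over Pitx1-negative cells in LI replicate 1 (x axis) and replicate 2 (y axis); red and blue points were called higher and lower, grey points were not called, and circled genes are labelled. Called genes lie mostly in the upper right and lower left (2154 of 2165, against 8852 of all 13172 tested), which the test on these same libraries favours.

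Among genes with an average log2 CPM over 5, 9 of those with the largest differences toward Pitx1-positive cells had log2 fold changes from 1.47 to 2.12. They were Prkcdbp (Cavin3, of the caveolar coat), the scaffold Slc9a3r1, the zinc finger factor Sall4, Rasl11b, Cers4, Slit3 (a secreted guidance protein), Bmp4, Amot (a junctional regulator of YAP) and Nrp2, a receptor for semaphorins and VEGF. Nrp2 had 361 and 514 CPM in positive, 137 and 175 CPM in negative and 217 and 215 CPM in SI cells (log2 fold change 1.47 ± 0.048 SE, edgeR adjusted p = 7.83e-15). Sall4 was at 62.4 and 75.8 CPM against 22.8 and 19.2 CPM, with 9.93 and 5.13 CPM in SI. Pitx1-negative cells thus lay below SI for Nrp2 and above SI for Sall4. Fewer expressing cells and less RNA per cell cannot be told apart in the sums. Cers4, Bmp4 and Amot were called in all 13 alternatives, and the other 6 of these 9 in 12.

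Of 19 other regional homeobox genes tested, 8 were higher and 6 lower, beside 6.75% higher and 9.69% lower over all genes tested. Higher members included Zfhx3 (246 and 431 against 179.9 and 343 CPM) and the low genes Six2 (3.998 and 9.68 against 1.98 and 3.65 CPM) and Barx1 (1.999 and 2.995 against 0.469 and 0.629 CPM). Isl1 was higher at full depth, with 36.6 and 14.4 CPM against 20.1 and 9.87 CPM (log2 fold change 0.71, adjusted p = 0.000149), but had -0.23 after thinning (adjusted p = 0.593). Zfhx4 (148 and 182 against 222 and 313 CPM), Tshz2, Meis1 and Prrx1 were lower, of which Prrx1 was too low to be tested after thinning. In this list direction thus differed from gene to gene.

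Of 18 forkhead, T-box, Gata and bHLH genes tested, 2 were higher and 9 lower, beside 6.75% and 9.69% over all genes tested. After thinning 6 were lower, and 5 without cells holding an Actg2 or Myh11 UMI, where Foxp1, Foxf2, Tcf21 and Osr1 no longer passed. Foxf1, a target of hedgehog signalling in gut mesenchyme, was higher by 0.28 on the log2 scale (279.7 and 539 against 228 and 439 CPM, adjusted p = 3.0e-05), and Gata3 rose from 2.19 and 1.35 to 4.40 and 5.53 CPM. Hand2, which acts in mesenchyme and in enteric neurons, had 45.6 and 46.9 CPM against 83.8 and 90.3 CPM (log2 fold change -0.93, and -0.81 without cells holding neural UMIs). Tbx2 and Tbx3, T-box repressors, stood at 2.999 and 4.72 against 14.9 and 16.1 CPM and at 4.998 and 3.69 against 13.9 and 16.2 CPM. Tbx2 kept a log2 fold change of -1.33 and Tbx3 of -1.46 without cells holding neural UMIs (adjusted p = 0.000237 and 0.00189), against -1.96 and -1.88 with them. Wt1, a factor of coelomic and mesothelial cells, was lower as well (7.60 and 5.76 against 19.4 and 20.0 CPM). Summed over 10 mesothelial markers, positive cells had 120.3 and 58.8 CPM and negative cells 121 and 36.7 CPM.

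The Hox genes split by cluster, while 6.75% of all genes tested were higher and 9.69% lower. Of 11 Hoxa genes tested, 8 were higher and 0 lower in Pitx1-positive cells, with a median log2 fold change of 0.75. Of 8 Hoxb genes, 0 were higher and 7 lower, with a median of -1.47. The 7 Hoxc genes gave 1 of each and the 9 Hoxd genes gave 1 higher and 3 lower. The called Hoxa genes ran from group 3 to group 10 and included Hoxa13, and the called Hoxb genes ran from group 2 to group 8.

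In the Hoxa cluster, Hoxa5 reached 49.6 and 72.9 CPM in positive and 23.1 and 35.4 CPM in negative cells (log2 fold change 1.05 ± 0.081, adjusted p = 2.69e-09). Hoxa9 stood at 182 and 169 against 123 and 103 CPM, and Hoxa10 at 236 and 289.7 against 157 and 214 CPM. Their positive sums lay above their negative sums in both libraries. In the Hoxb cluster, Hoxb4 had 14.4 and 15.9 CPM in positive and 38.0 and 52.3 CPM in negative cells, against 155 and 127 CPM in SI (log2 fold change -1.61 ± 0.11, adjusted p = 2.84e-10). Hoxb8 had 2.00 and 2.19 against 6.77 and 7.29 CPM, with 41.5 and 37.7 CPM in SI. Order was the same for both, with SI highest and Pitx1-positive cells lowest.

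Of 9 posterior Hox genes tested (groups 10 to 13), 4 were higher and 2 lower, and 2 further listed genes, Hoxb13 and Hoxc12, were at 0 in every sum. Hoxd13 had 12.99 and 11.1 CPM in positive and 1.61 and 1.73 CPM in negative cells (log2 fold change 2.79 ± 0.21, adjusted p = 1.94e-09). It remained higher after thinning, at 1.37. Hoxa13 had 18.4 and 15.3 against 10.8 and 8.68 CPM (0.78 ± 0.13, adjusted p = 0.000163), but -0.22 after thinning (adjusted p = 0.681). Hoxd11 was lower, with 185 and 139 against 258 and 229 CPM (-0.62 ± 0.054, adjusted p = 2.03e-08). Hoxd10 (107 and 112 against 113 and 133 CPM) was lower (log2 fold change -0.19, adjusted p = 0.0283) and Hoxc10 (107 and 94.7 against 98.9 and 75.1 CPM) higher (0.22, adjusted p = 0.0215). Hoxd10 did not pass after thinning (-0.10, adjusted p = 0.546), nor did Hoxc10 without cells holding neural UMIs (0.14, adjusted p = 0.242) or an Actg2 or Myh11 UMI (0.13, adjusted p = 0.203). Hoxa11, Hoxc11 and Hoxd12 did not pass the test, at log2 fold changes of 0.23, 0.34 and 0.74. Of group 9, Hoxa9 passed, and Hoxb9, Hoxc9 and Hoxd9 lay at -0.20, -0.05 and 0.00.

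**Figure D3:**
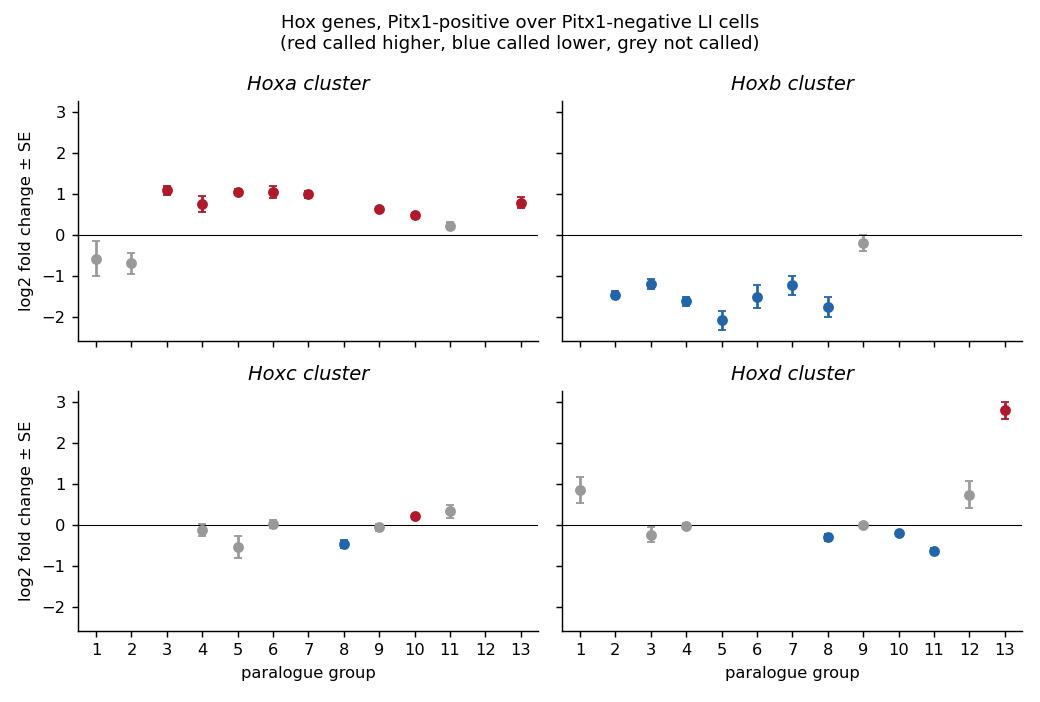
Log2 fold change ± SE (edgeR, y axis) of each tested Hox gene in Pitx1-positive over Pitx1-negative LI cells, by cluster (panels) and paralogue group (x axis); red was called higher, blue lower and grey not called. Hoxa genes sit mostly above 0 and Hoxb genes below it, and Hoxd13 is the highest point of its panel at 2.79.

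Among FGF genes, 5 of 12 tested were higher and 0 lower, beside 6.75% and 9.69% over all genes tested. Fgf10 had 56.4 and 62.4 CPM in positive, 12.3 and 14.9 CPM in negative and 2.796 and 1.56 CPM in SI cells (log2 fold change 2.10 ± 0.090, adjusted p = 3.32e-13, called in all 13 alternatives). All 3 groups were apart, and after thinning Fgf10 was found in 17.7% and 17.5% of Pitx1-positive against 3.798% and 5.16% of Pitx1-negative cells. Fgf9, a ligand known from cecal epithelium and mesothelium, had 37.4 and 35.7 against 15.8 and 7.48 CPM (1.76 ± 0.15, adjusted p = 2.36e-08). Etv5 and Spry4, which FGF receptor signalling induces, stood at 30.8 and 20.7 against 20.1 and 11.6 CPM and at 16.4 and 33.8 against 13.7 and 21.4 CPM. The receptor Fgfr1 was higher by 0.33 on the log2 scale, but did not pass after thinning (0.25, adjusted p = 0.104). Summed over 8 epithelial markers, positive cells had 30.2 and 29.6 CPM and negative cells 12.499 and 12.3 CPM, almost all from Epcam (29.2 and 28.7 against 11.8 and 11.4 CPM), although EpCAM was sorted against. Of the other lists of outside cell types, 1 of 4 endothelial (Cldn5), 0 of 1 immune, 0 of 2 erythroid and 3 of 7 pericyte and interstitial markers (Cspg4, Kcnj8 and Rgs5) were lower (after thinning Kcnj8 did not pass, with an adjusted p of 0.0704, and Cldn5 was not tested), and of 6 mesothelial markers 1, Podxl, was higher. The other listed epithelial markers had at most 5 UMIs in either Pitx1-positive sum. Whether epithelial transcripts had a part in the Fgf9 difference was not tested.

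Of 19 BMP genes tested, 4 were higher (21.1%) and 2 lower (10.5%). Over all genes tested these shares were 6.75% and 9.69%, so the lower share was near that of all genes. The ligand Bmp4 had 87.4 and 94.0 CPM in positive, 30.9 and 30.02 CPM in negative and 26.5 and 24.5 CPM in SI cells (1.57 ± 0.074, adjusted p = 1.48e-12). Bmp7 was higher as well, at 24.8 and 18.5 against 9.06 and 7.42 CPM. For both ligands the Pitx1-negative cells lay near SI. Fst, encoding follistatin, which binds activins and some BMPs, went the other way: 179 and 263 CPM in positive, 659.8 and 1096 CPM in negative and 105 and 167 CPM in SI cells (-1.99 ± 0.044, adjusted p = 1.40e-17). Here the Pitx1-negative LI cells stood apart from both others. After thinning, Fst was found in 21.8% and 21.2% of Pitx1-positive and 61.7% and 71.5% of Pitx1-negative cells. Among BMP target genes, Id2 was higher (598 and 744 against 503 and 485 CPM) and Smad7 lower (log2 fold change -0.15), the latter not passing after thinning (-0.17, adjusted p = 0.109).

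Of 18 WNT genes tested, 3 were higher (Sfrp1, Wif1 and Wnt5b) and 7 lower. After thinning 0 were higher and 5 lower, and without cells holding neural UMIs 1 was higher and 6 lower of 17. All genes tested gave 6.75% higher and 9.69% lower at full depth and 5.23% and 7.41% after thinning. Without cells holding neural UMIs they gave 5.62% and 7.79%. Wnt5a, a ligand of noncanonical WNT signalling needed for gut elongation, had 84.2 and 97.0 CPM in positive and 272 and 396 CPM in negative cells (-1.90 ± 0.062, adjusted p = 7.83e-15). Its SI values of 115 and 157 CPM lay between those of both LI groups. Rspo3, an R-spondin that strengthens WNT signalling, fell to 15.4 and 19.1 CPM from 53.2 and 82.4 CPM, with 145 and 154 CPM in SI (-2.01 ± 0.097, adjusted p = 2.08e-12). Rspo1 (3.798 and 3.34 against 10.3 and 14.1 CPM) and Wnt4 (1.799 and 2.53 against 14.7 and 10.5 CPM) were lower too. The secreted antagonist Sfrp1 was higher at full depth, with 189 and 139 against 94.99 and 90.6 CPM (0.78 ± 0.067, adjusted p = 1.68e-08), and -0.14 after thinning (adjusted p = 0.485). Its SI level was 583 and 438 CPM.

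**Figure D4:**
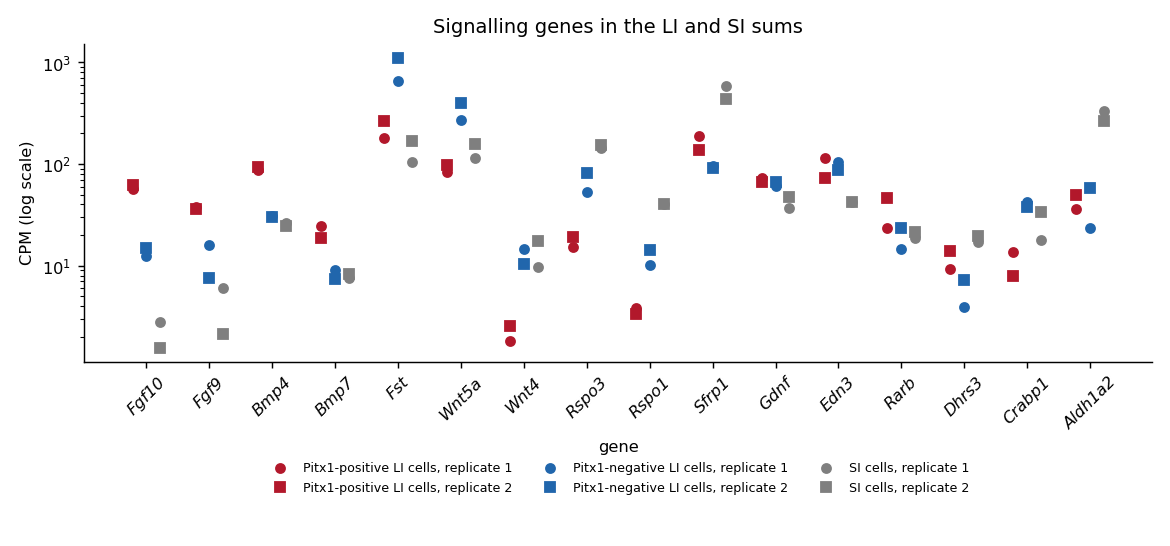
Levels of 16 signalling genes (x axis) in CPM on a log axis (y axis), as sums of Pitx1-positive LI cells (red), Pitx1-negative LI cells (blue) and SI cells (grey); circles are replicate 1 and squares replicate 2, with no error bars because each point is 1 sum. Fgf10 separates all 3 groups, Bmp4 is high in Pitx1-positive cells alone, and Fst is high in Pitx1-negative LI cells.

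Other pathways showed smaller or mixed differences, beside 6.75% higher and 9.69% lower over all genes tested. Of 12 retinoic acid genes, 3 were higher and 5 lower: Rarb, a receptor that retinoic acid itself induces, had 23.4 and 45.9 against 14.4 and 23.3 CPM, and Dhrs3, a retinaldehyde reductase, 9.20 and 13.8 against 3.91 and 7.26 CPM. The binding protein Crabp1 (13.6 and 7.83 against 42.5 and 38.1 CPM) and the synthesis enzyme Aldh1a1 (0.7997 and 6.57 against 4.79 and 32.6 CPM) were lower. Aldh1a2, the main embryonic synthesis enzyme, did not pass (36.0 and 49.8 against 23.6 and 57.8 CPM, log2 fold change 0.06), but was called higher after thinning (0.40, adjusted p = 0.0331) and without cells holding an Actg2 or Myh11 UMI (0.56, adjusted p = 0.00463). Of 10 hedgehog genes, Ptch1, the receptor and direct target, was higher by 0.30 on the log2 scale (232 and 295 against 181 and 243 CPM). The 4 lower ones were Gli3, Gas1, Hhip and Boc, of which Hhip did not pass after thinning.

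Of 8 genes for signals to enteric neural progenitors, 1 was higher and 1 lower, near the shares over all genes tested (6.75% and 9.69%). Gdnf, the ligand of the Ret receptor complex, had 73.6 and 67.2 against 60.3 and 66.0 CPM (log2 fold change 0.13, adjusted p = 0.291), and Edn3, the ligand of Ednrb, 114 and 73.5 against 104 and 88.4 CPM (-0.09, adjusted p = 0.501). Ece1, which processes endothelin, was higher (40.6 and 60.7 against 23.1 and 41.4 CPM) and Bdnf, a neurotrophin, lower. The sums of both groups overlapped in Edn3 and lay close together in Gdnf. Without cells holding an Actg2 or Myh11 UMI, Gdnf was called higher (0.27, adjusted p = 0.0378), and without cells holding neural UMIs it was at -0.015 (adjusted p = 0.940).

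Smooth muscle genes were lower in Pitx1-positive cells. Of 14 tested, 12 were lower and 0 higher, with a median log2 fold change of -0.71. Actg2, smooth muscle gamma actin, had 17.0 and 36.3 CPM in positive, 52.4 and 161 CPM in negative and 195 and 432 CPM in SI cells (-2.02 ± 0.091, adjusted p = 7.26e-13). Myh11 (0.5997 and 9.68 against 6.09 and 59.2 CPM) and Myocd, the coactivator that drives the contractile programme (20.2 and 35.3 against 42.3 and 91.8 CPM), were lower in both libraries. Without cells holding an Actg2 or Myh11 UMI, 6 of 12 were still lower, among them Myocd, Mylk and Des, and 3 were higher, in a comparison that called 5.03% of all genes higher and 7.72% lower. Acta2 and Tagln then changed direction, from -1.10 and -0.29 to 0.27 and 0.18 (adjusted p = 0.00723 and 0.0348).

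Neural markers were at low levels and lower in Pitx1-positive cells. Of 8 tested, 7 were lower and 0 higher (median log2 fold change -3.84), led by Tubb3 (0.5997 and 1.27 against 43.5 and 38.2 CPM). Gap43, a growth cone protein and the leading gene among those lower, stood at 3.20 and 2.42 against 55.4 and 45.1 CPM. Its log2 fold change was -4.18 with and -2.32 without cells holding neural UMIs (adjusted p = 2.85e-14 and 6.40e-06). That restriction left 903 and 666 positive and 3230 and 2222 negative cells. Over all genes it called 1710 (5.62% higher and 7.79% lower), of which 1611 were among the 2165, and Fgf10, Bmp4, Fst and Wnt5a kept log2 fold changes of 1.97, 1.51, -2.14 and -1.98.

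The other leading lower genes were less tied to these markers. Itga4, an integrin chain that binds fibronectin and VCAM1, had 3.998 and 7.83 CPM in positive and 39.8 and 60.4 CPM in negative cells, against 7.05 and 8.36 CPM in SI (-3.06 ± 0.13, adjusted p = 1.95e-13). Without cells holding neural UMIs it had -3.18. Epha5, an ephrin receptor, Col9a1, the matricellular Sparcl1 and the muscle and neural factor Mef2c had log2 fold changes between -2.04 and -1.70, and between -2.16 and -1.84 without those cells. In LI replicate 1 alone, with replicate 2 left out, Sparcl1 was at -1.39.

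Fibrillar collagen genes did not move together. Col1a1 had 35.8 and 65.8 CPM in positive and 98.1 and 218 CPM in negative cells (-1.65 ± 0.068, adjusted p = 1.87e-13). Its partner chain Col1a2 had 179.9 and 323 CPM against 83.3 and 153 CPM (1.08 ± 0.048, adjusted p = 5.61e-13), and Col3a1 did not pass (632 and 938 against 564 and 916 CPM). The 2 chains of type I collagen thus ran in opposite directions in both libraries. Of 14 fibroblast genes 3 were higher and 7 lower, with the proteoglycan Dcn (48.6 and 71.5 against 25.4 and 29.9 CPM) and Igfbp5 (524 and 761 against 320.3 and 509 CPM) higher and Col6a1 lower. Of 21 collagen and matrix genes 4 were higher and 9 lower, beside 6.75% and 9.69% over all genes tested. Postn and Tnc, matricellular genes, rose to 52.8 and 81.4 from 36.7 and 33.7 CPM and to 12.2 and 18.4 from 9.89 and 8.80 CPM, and Col12a1 fell to 4.40 and 8.29 from 20.4 and 41.4 CPM.

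Imprinted and insulin-like growth factor genes were also split, with 6 of 17 higher and 8 lower, beside 6.75% and 9.69% over all genes tested. Peg3, a paternally expressed zinc finger gene, had 622 and 699.5 CPM in positive, 283 and 281 CPM in negative and 192 and 197 CPM in SI cells (1.22 ± 0.044, adjusted p = 3.15e-14). Cdkn1c, the maternally expressed inhibitor of the cell cycle, had 474 and 519 against 908 and 1166 CPM, and Plagl1, a paternally expressed zinc finger gene, 54.4 and 83.8 against 139 and 200.1 CPM. The binding protein Igfbp3 was higher (7.997 and 38.5 against 1.61 and 2.77 CPM, log2 fold change 3.45), whereas Igfbp2 (56.6 and 87.2 against 106 and 157 CPM) and Dlk1 were lower. Igf2 was higher by 0.21 and H19 by 0.40 on the log2 scale.

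Of 20 guidance and adhesion genes, 4 were higher (Nrp2, Slit3, Efna5 and Cdh2) and 8 lower, including Epha7 (28.6 and 48.4 against 76.7 and 122 CPM) and Ncam1 (75.6 and 119.7 against 127 and 216 CPM), which had -1.45 and -0.81 without cells holding neural UMIs, against -1.38 and -0.83 with them. Cell cycle genes differed little. Of 15 replication genes 3 and of 18 mitosis genes 3 were higher and 0 lower, with log2 fold changes of 0.14 to 0.32, and after thinning 1 and 0 passed. Among 11 stress and early response genes 9 were lower, led by Fosb (198 and 189 against 359 and 376 CPM), and 6 after thinning. The background shares in these comparisons were 6.75% higher and 9.69% lower at full depth.

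Levels were next summed by the number of Pitx1 UMIs in the cell, to describe whether a gene followed the amount of Pitx1. These values rest on the same cells and carry no test. From cells with 0 over 1, 2 to 3, 4 to 7 and 8 or more Pitx1 UMIs, Bmp4 went from 30.9 over 38.2, 79.9 and 117 to 170.4 CPM in replicate 1 and from 30.02 over 37.5, 60.3 and 120.3 to 143 CPM in replicate 2. It rose at each step in both libraries, as did Peg3, Nrp2, Col1a2 and Igfbp3. Fgf10 rose at the first step, from 12.3 and 14.9 to 44.2 and 54.6 CPM, and lay between 58.1 and 67.6 CPM in cells with 2 or more UMIs.

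Other genes fell along the same steps. Fst went from 659.8 over 262, 178 and 134 to 70.4 CPM in replicate 1 and from 1096 over 625, 222 and 166 to 86.2 CPM in replicate 2. Col1a1 fell from 98.1 to 7.41 CPM and from 218 to 29.8 CPM between the outer groups, and Actg2 from 52.4 to 1.85 CPM and from 161 to 12.1 CPM. Each of the 3 fell at every step in both libraries.

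A further set was highest at low Pitx1 numbers. Hoxa13 had 10.8, 26.8, 26.2, 5.85 and 3.70 CPM in replicate 1 and 8.68, 23.9, 27.6, 4.65 and 8.23 CPM in replicate 2. Sfrp1 had 94.99, 268, 224, 124 and 27.8 CPM and 90.6, 249, 227, 83.2 and 31.7 CPM. Isl1 peaked at 56.8 CPM (2 to 3 UMIs) in replicate 1 and 28.3 CPM (1 UMI) in replicate 2, with 5.56 and 3.13 CPM at 8 or more. Cells with 1 to 3 Pitx1 UMIs were thus the richest in these 3 genes. At 8 or more, Sfrp1 and Isl1 lay below the Pitx1-negative level in both libraries, Isl1 with 3 and 8 UMIs, whereas Hoxa13 rested on 2 UMIs in replicate 1 and was close to the Pitx1-negative level in replicate 2. Hoxd13 had 1.61, 16.1, 12.49, 13.9 and 3.70 CPM and 1.73, 9.75, 27.6, 7.90 and 2.35 CPM, never below the Pitx1-negative level, although its values at 8 or more rest on 2 and 6 UMIs.

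**Figure D5:**
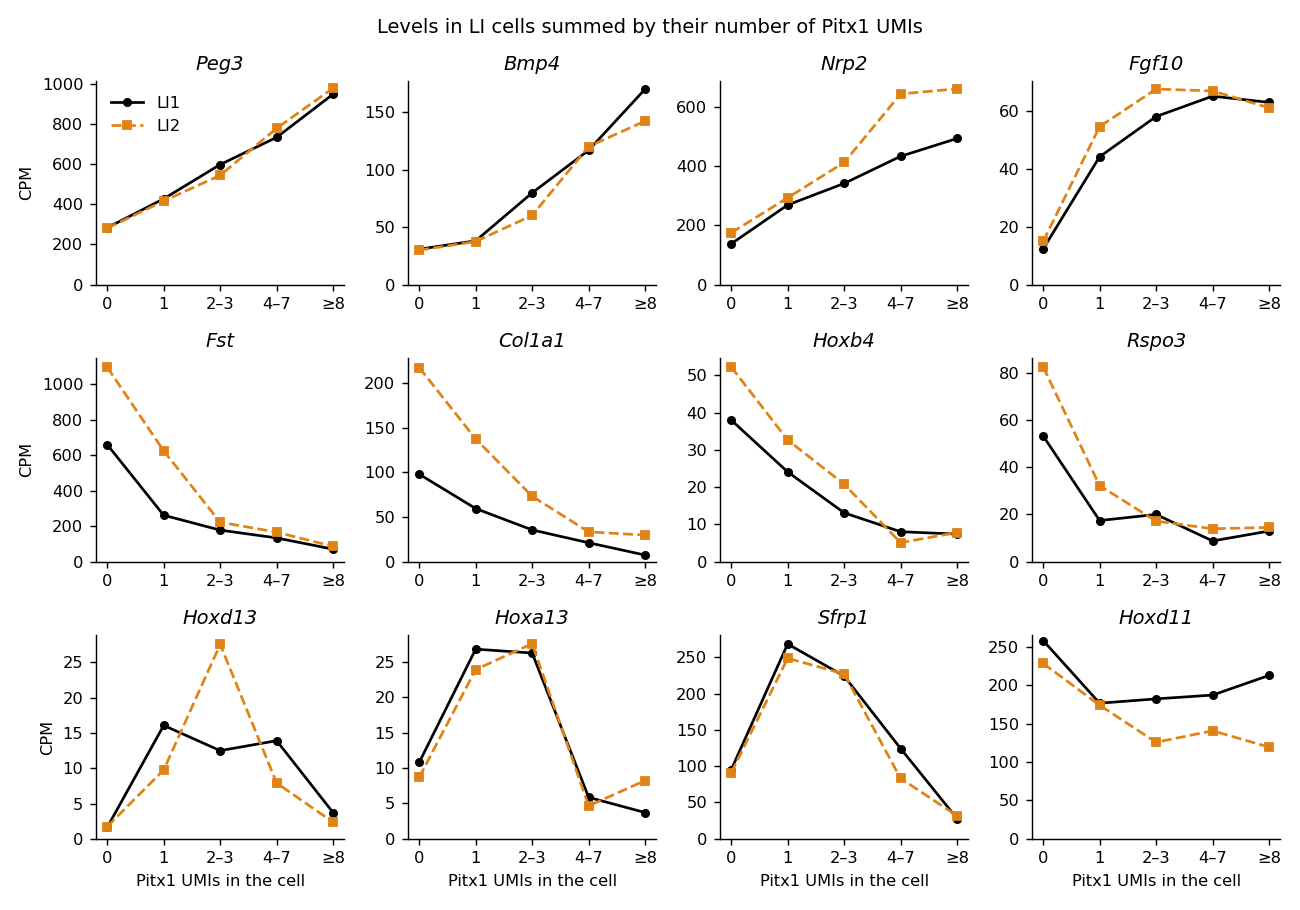
CPM (y axes, each from 0) of 12 genes in LI cells summed by their number of Pitx1 UMIs (x axis), in replicate 1 (black, solid) and replicate 2 (orange, dashed); each point is 1 sum without an error bar. Peg3, Bmp4 and Nrp2 rise with Pitx1, Fst and Col1a1 fall, Hoxb4 is lower in every group with Pitx1 UMIs than in cells with 0, and Hoxa13 and Sfrp1 are highest at 1 to 3 UMIs.

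The overlap of Pitx1 with Hoxa13, the gene of the posterior end of the gut, was counted cell by cell. In thinned cells, Pitx1 was found in 15.8% and 10.1% of Hoxa13-positive and in 17.2% and 15.1% of Hoxa13-negative LI cells. At full depth the shares were 27.4% and 29.0% against 20.1% and 19.5%. The order of these shares thus differed between thinned and full counts, but thinned cells that lost their Pitx1 or Hoxa13 UMIs count as negative. Hoxa13 UMIs were few, with 207 and 276 in the Pitx1-negative cells of replicates 1 and 2 at full depth. Whether the order differed beyond counting error was not tested.

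To place both LI groups beside the small intestine, each was compared with the 2 SI sums in its own edgeR test. The comparisons share the SI sums and are given side by side. Pitx1-negative LI cells differed from SI in 253 of 14433 genes, 171 higher (1.18%) and 82 lower (0.568%). Without LI replicate 2 they differed in 1759 genes, 608 higher and 1151 lower, so both the count and the balance of directions rested on that library. The count was 477 to 602 without any one of the other libraries, with 262 higher and 280 lower without SI replicate 1. Pitx1-positive cells differed in 958 of 13999, 483 higher (3.45%) and 475 lower (3.39%), and in 2106 without LI replicate 2, 794 higher and 1312 lower. The direct test between both LI groups is the one described above.

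Of 9 posterior Hox genes, 5 were higher than SI in Pitx1-negative and 9 in Pitx1-positive cells. Hoxd11, for example, had 0.0447 and 5.96 CPM in SI against 258 and 229 CPM in Pitx1-negative LI cells, with an adjusted p of 0.0649 that did not pass. Among anterior Hox genes (groups 1 to 8), 4 were higher and 9 lower in Pitx1-negative, and 5 higher and 14 lower in Pitx1-positive cells, of 23 tested. Summed over the 12 listed posterior Hox genes, Pitx1-positive cells had 752 and 728 CPM, Pitx1-negative LI cells 699.7 and 723 CPM, and SI cells 0.492 and 21.5 CPM. Both LI groups thus carried posterior Hox transcripts at nearly the same summed level.

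Fgf10 had a log2 fold change over SI of 4.63 in Pitx1-positive and 2.50 in Pitx1-negative cells (adjusted p = 0.000118 and 0.0137). Bmp4 was at 1.68 in Pitx1-positive cells (adjusted p = 0.000951) and at 0.11 in Pitx1-negative cells (adjusted p = 0.857). Fst, Epha5 and Itga4 gave the opposite picture, with 2.54, 2.70 and 2.55 in Pitx1-negative cells (adjusted p = 0.0119, 0.0119 and 0.00482) and 0.56, 0.78 and -0.48 in Pitx1-positive cells (adjusted p = 0.254, 0.143 and 0.402). Rspo3 was below SI in both, at -3.25 in Pitx1-positive and -1.30 in Pitx1-negative cells (adjusted p = 9.56e-05 and 0.0360). In Pitx1-positive cells 10 of 14 smooth muscle genes and 7 of 8 neural markers were below SI. In Pitx1-negative cells, Actg2 and Myh11 were at -1.71 and -2.36 against SI and did not pass (adjusted p = 0.214 and 0.354), with SI libraries that themselves ranged from 195 to 432 and from 52.5 to 249 CPM.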

How the data were processed

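Stromal cells were sorted from E12.5 large and small intestine in 4 samples, 2 per region, and run on 10x Genomics 3' or 5' kits. Which library used which kit is not given in the labels, whose tissue and description fields name adult colonic tissue although titles and protocols state E12.5. The authors deposited gene-by-barcode matrices of raw UMI counts, made with Cell Ranger 3.1.0 on mm10 and handled in Seurat 3 according to the submitters' processing notes. Of the barcodes that passed the depth filters, 500 to 694 a library were left out for Upk3b, Sox10 or Prph UMIs. No column of another sample was present (0).

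Cells were filtered and split as the report states. Counts were summed per library and Pitx1 status, scaled by TMM and tested with edgeR 4.0.16 in R 4.3.3, with filterByExpr defaults, the library as a term for the comparison within LI, and no term against SI. Thinning drew 3000 UMIs a cell without replacement (seed 12). Doublets were scored with Scrublet (scanpy 1.11.5). Its automatic threshold marked 1 to 7 barcodes a library and was not used, and an alternative left out the top scores, 0.8% per 1000 barcodes. DESeq2 1.42.0 was an alternative test. Scripts were tested on simulated data. Of 28692 listed genes, 28416 were found in GENCODE M21 (GRCm38). Whether counting used strand is not given in the sources used here. Several named genes overlap exons of a gene on the other strand, among them Fgf10, Bmp4, Wnt5a, Itga4, Rarb, Cdkn1c, Tshz2, Tbx3 and Ncam1. Hoxc10 shares exon bases with Hoxc5 on the same strand. Precision is limited by 2 libraries a region and, in LI replicate 1, by its depth.

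The members, the 26 gene lists and the tests were chosen with earlier results of these data known. By rule, the text names the 10 called genes with the largest change in each direction (average log2 CPM over 5, same direction in both libraries and after thinning), all tested Hox genes of groups 9 to 13, and up to 4 called genes with the smallest adjusted p of every other list. Further list members and the genes among the closing observations were named after their values were seen. Some genes that the rule selects are not reported here, and counts over lists include them. Alternatives were thinning, cells matched on UMI counts, a threshold of 2 Pitx1 UMIs, leaving out muscle, cycling, doublet-scored or (added after seeing the data) neural cells, other scaling, test, filter and replicate terms, and each replicate left out.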

Additional observations from a re-analysis of the deposited data

Results flagged for a closer look

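Pitx1 was also found among LI barcodes that the filters left out and no comparison used. Barcodes with an Upk3b UMI and neither Sox10 nor Prph, thinned to 3000 UMIs, held a Pitx1 UMI in 42 of 564 cases in LI replicate 1 (7.45%, 95% Wilson interval 5.56 to 9.91) and in 11 of 261 in replicate 2 (4.21%, 2.37 to 7.39). Barcodes with a Sox10 or Prph UMI did so in 4 of 130 (3.08%, 1.20 to 7.64) and 6 of 239 cases (2.51%, 1.16 to 5.37). Among barcodes with 3 or more UMIs of the markers these numbers were 18 of 286 (6.29%) and 9 of 209 (4.31%) for Upk3b, and 1 of 38 and 0 of 134 for Sox10 and Prph, where 0 of 134 allows up to 2.79% (upper Wilson bound), so the Sox10 or Prph cases came mostly from barcodes with 1 or 2 marker UMIs. The same 2 kinds of SI barcodes, 331 and 208 with Upk3b and 247 and 358 with Sox10 or Prph, held none. These were picked out because they lie outside the compared cells and above the SI level. All 4 LI shares lay below those of kept LI cells thinned in the same way (17.2% and 15.0%).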

How the results depend on the processing

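The mean share of Pitx1-positive cells was 20.4%, against 16.1% thinned, 20.7% in cells of 5000 or more UMIs, 19.9% without the highest doublet scores and 20.2% to 20.5% with 1 replicate left out. Within LI, 2165 genes were called, against 628 by DESeq2's Wald test, 32 with no replicate block (no library term) and 250 to 430 with 1 replicate left out. Between 1541 and 2302 were called under the other 9 settings. Pitx1-negative cells against SI gave 253 calls, against 585 (Wald test), 1283 (no filter on low counts), 1045 (replicate block) and 477 to 1759 (1 replicate left out, the most without LI replicate 2). Pitx1-positive cells against SI gave 958, against 1994 (no filter), 1492 (replicate block) and 850 to 2106 (1 replicate left out). LI and SI numbers pair nothing in the labels, and same-numbered deviations correlated at 0.22 and 0.41 over 2 pairs.

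Some named genes changed sign in log2 fold change. With 1 LI replicate left out, Hoxd12 ran from -0.018 to 1.49, Hoxd9 from -0.016 to 0.023, Hoxc9 from -0.24 to 0.12, Edn3 from -0.28 to 0.12 and Aldh1a2 from -0.23 to 0.60. Thinning gave Hoxa13 -0.22, Sfrp1 -0.14, Isl1 -0.23 and Top2a -0.0055. Without cycling cells Hoxa11 was -0.14, Hoxd9 -0.12, Hoxc9 0.043 and Cenpf -0.86. Without muscle cells Hoxd9 was -0.12, Acta2 0.27 and Tagln 0.18, and without neural cells Hoxd9 was -0.094 and Gdnf -0.015. Cells matched on UMI counts gave Hoxc9 0.035, Cenpf -0.0086 and Edn3 0.024, 2 or more Pitx1 UMIs gave Hoxc9 0.071, and no filter gave Hoxd9 -0.020. The cause was not tested. Of the 93 called genes that the rule named, 80 no longer passed with no replicate block and 16 with the Wald test.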

Other observations

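Below the level of average log2 CPM 5 that the naming rule required, 5 genes with large differences are given, picked after their values were seen. Rgs6, a regulator of G protein signalling, had 25.0 and 42.5 CPM in positive, 1.82 and 3.24 CPM in negative and 0.157 and 0.200 CPM in SI cells (edgeR log2 fold change 3.72 ± 0.14, adjusted p = 4.92e-14, and 3.46 after thinning). Prdm1, encoding the transcriptional repressor Blimp1, had 14.8 and 15.3 against 1.72 and 1.63 CPM, with 0.0895 and 0.109 CPM in SI (3.16 ± 0.19). The receptor phosphatase gene Ptprm had 17.6 and 29.1 against 2.29 and 2.20 CPM, with 1.10 and 1.4 CPM in SI (3.43 ± 0.18). Myzap, a junction protein of heart muscle, had 23.6 and 28.5 against 2.396 and 3.21 CPM, and Actc1, cardiac alpha actin, 22.8 and 15.4 against 4.17 and 1.16 CPM, although smooth muscle genes were lower in the same cells. Positive sums lay above negative and SI sums for all 5 genes, without overlap.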
